A study of Mus musculus with 16 samples.

Results

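The genes of the inflammasome core were followed in myeloid cells that had been flow-sorted from healing tissue after knee ligament surgery in mice. The set was fixed by name as the sensors Nlrp3, Nlrc4, Aim2, Mefv and Nlrp1b, the adaptor Pycard, the caspases Casp1 and Casp4, and the pore-forming protein gene Gsdmd. All 9 were among the 20200 genes of the count table, and all 9 passed the filter on low counts, which kept 11998 genes. The 12-week-old male C57BL/6 mice, wild type in all groups, had undergone anterior cruciate ligament reconstruction (ACLR), in which a tendon graft is pulled through a drilled bone tunnel, and the tissue at the bone-to-tendon interface was taken on day 1 or day 14. No unoperated group was analysed here, so all 8 groups share the surgery. Live, lineage-negative CD45+ cells were sorted into neutrophils (Ly6G+ Ly6C+) and 3 Ly6G- CD11b+ populations: CD9+ macrophages (F4/80+ CD9+), CX3CR1+ macrophages (F4/80+ CX3CR1+ CD9-) and F4/80- myeloid cells. Each population had 2 libraries on each day, 16 in all, and each library came from pooled mice, so the errors given here measure the spread between pools. The paper's total of mice is too small for a separate pool per library. Populations of the same day and replicate number may thus share a pool, and a paired fit is given at the end.

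An inflammasome is a protein platform that myeloid cells build when a sensor detects a microbial product or a sign of cell damage. The sensor recruits the adaptor ASC (the product of Pycard), which in turn activates caspase-1. Caspase-1 cleaves the precursors of IL-1β and IL-18 and cuts gasdermin D, whose freed end forms pores in the plasma membrane and can kill the cell by pyroptosis. In a separate non-canonical route caspase-11, the product of the mouse gene Casp4, binds intracellular lipopolysaccharide and cuts gasdermin D directly. Much of this machinery is regulated after translation, and mRNA levels such as those measured here show the supply of transcripts rather than the activity of the complex.

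Total counts lay between 9233952 and 19814119 a library. Values are given as CPM, that is, read counts relative to the library's total after TMM scaling, and pairs of values are in the order replicate 1 and replicate 2. Calls came from the quasi-likelihood test of edgeR: a gene counted as higher or lower where its Benjamini-Hochberg adjusted p was under 0.05 and its log2 fold change was 1 or more in size. The markers bore out the sort in part. Ly6g was at 81.7 to 286 CPM in neutrophils and at no more than 10.1 CPM elsewhere, and 7 macrophage markers summed to 902 to 1811 CPM in both macrophage gates against 173 to 219.8 CPM in F4/80- cells. However, 10 neutrophil markers, led by the granule protein gene Ngp, summed to 33104 to 43516 CPM in F4/80- cells and to 5694 to 20524 CPM in CD9+ macrophages, against 506 to 1102 CPM in CX3CR1+ macrophages. In CD9+ macrophages 6 eosinophil markers, led on day 14 by Prg2 and Epx, summed to 543 and 601 CPM on day 1 against 6389 and 10300 CPM at the later time. In F4/80- cells 4 basophil and mast cell markers summed to 689 to 859 CPM on day 1 and to 1281 to 1465 CPM on day 14. They summed to 89.0 to 251 CPM in CD9+ macrophages over both days, and to no more than 7.72 CPM in CX3CR1+ macrophages and neutrophils. The CD9+ pools of day 1 were the least alike of the 8 pairs, with a correlation of 0.935 over the tested genes against 0.976 to 0.988 in the other pairs. In sorted bulk samples, fewer cells of a type and less RNA per cell cannot be told apart.

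Promoter sequences are shown for 3 of the 5 members that fell in neutrophils between the days. Nlrp3, Casp4 and Mefv were chosen with the motif matches known. The windows of Nlrp3 and Casp4 held the NF-kappaB motif alone, and that of Mefv held none of the motifs searched. Aim2 and Nlrc4, whose windows held other motifs, are not shown. Each sequence is the 250 bases before the RefSeq start site (GRCm38.p6), given 5′ to 3′ on the gene's own strand. Capitals mark matches to the NF-kappaB motif on either strand.

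Nlrp3, chr11:59541319-59541568, plus strand: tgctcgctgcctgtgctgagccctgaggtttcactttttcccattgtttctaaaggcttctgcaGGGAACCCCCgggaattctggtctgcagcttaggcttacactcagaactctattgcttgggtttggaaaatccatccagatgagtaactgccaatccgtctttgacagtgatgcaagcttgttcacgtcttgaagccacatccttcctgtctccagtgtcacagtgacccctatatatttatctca

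Casp4, chr9:5308599-5308848, plus strand: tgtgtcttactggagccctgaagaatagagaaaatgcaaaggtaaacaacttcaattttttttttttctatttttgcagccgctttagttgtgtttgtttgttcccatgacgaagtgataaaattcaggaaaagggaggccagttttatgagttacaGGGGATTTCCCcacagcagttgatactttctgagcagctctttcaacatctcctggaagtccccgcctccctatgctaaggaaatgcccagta

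Mefv, chr16:3718125-3718374, minus strand: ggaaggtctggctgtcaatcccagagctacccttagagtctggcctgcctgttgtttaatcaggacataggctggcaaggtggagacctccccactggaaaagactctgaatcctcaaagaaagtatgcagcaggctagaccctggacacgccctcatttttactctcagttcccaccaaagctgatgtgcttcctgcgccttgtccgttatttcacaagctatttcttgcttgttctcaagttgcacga

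The Nlrp3 window held 1 NF-kappaB match, ending 177 bases before the start, and the Casp4 window held 2 overlapping matches, ending 84 and 83 bases before it. Of 32851 RefSeq promoter windows of this length, 3.90% held such a match. RefSeq gave a window for 8 of the 9 members, and the other 6 windows held no NF-kappaB match. Among these were the windows of Mefv, Aim2 and Nlrc4, which also fell in neutrophils. The interferon-stimulated response element (GAAA on each side of any 2 bases, in 2.98% of all windows) and the AP-1 motif (TGANTCA, 6.75%) were found in none of the 8 windows on either strand. The PU.1 motif (GAGGAA, 23.3% of all windows) was found in the windows of Aim2, Nlrp1b, Pycard and Casp1, and the C/EBP motif (TTGCNNAA, 9.56%) in those of Nlrc4, Nlrp1b and Pycard. The start used for Aim2 lies 69725 bases from the start of its gene in the annotation. These matches are descriptions of letters in a window, and binding was not measured.

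Divided by exon length, Nlrp3, Mefv and Gsdmd were the 3 highest members in 7 of the 8 groups, all but the neutrophils of day 14. In neutrophils of day 1, Nlrp3 made up 58.6% of the summed CPM per kb of the 9 members and Mefv a further 20.6%, with Gsdmd at 8.64%. By day 14 the neutrophil share of Nlrp3 was 45.1%, that of Gsdmd was 27.1% and that of Mefv was 5.80%, below Casp1 at 10.7%. Macrophages had a more even make-up, in which CX3CR1+ cells of day 1 held Mefv at 24.6%, Nlrp3 at 21.4%, Gsdmd at 15.3% and Casp1 at 13.8%. In CD9+ macrophages Nlrp3 took 26.8% at day 1 and 15.7% at day 14, when Gsdmd led with 27.8%. Nlrc4 and Nlrp1b were the 2 lowest members in every group except the CD9+ macrophages of day 1, where Casp4 (3.29%) was below Nlrc4 (4.07%). In neutrophils Nlrc4 made up 0.246% of the sum on day 1 and 0.266% on day 14.

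**Figure D1:**
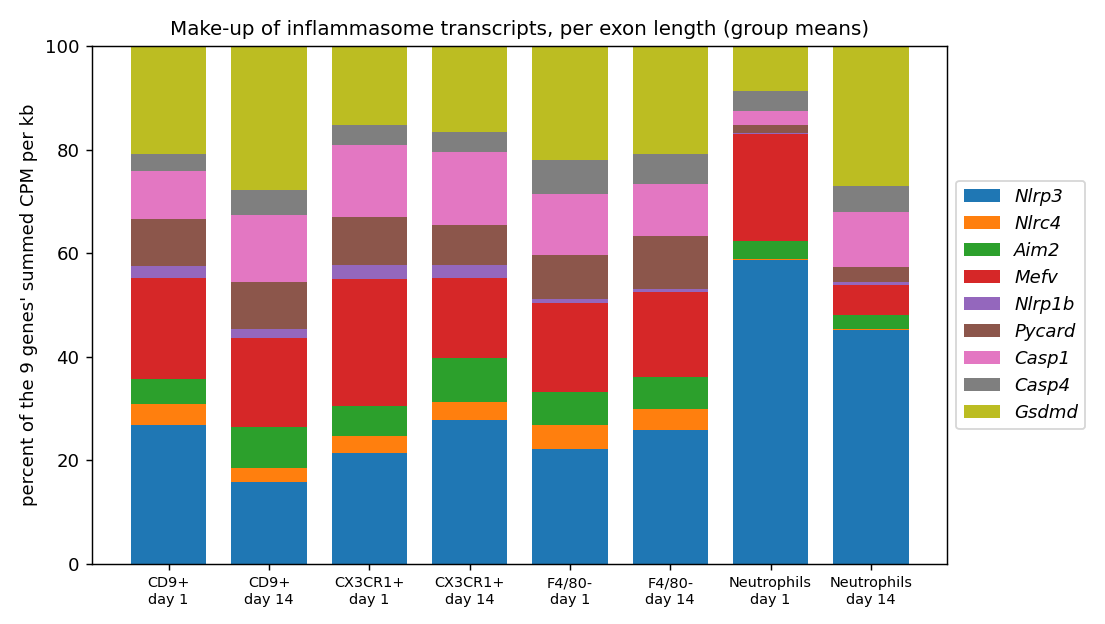
Stacked bars give each gene's percent of the summed CPM per kb of exon for the 9 inflammasome genes, from the means of 2 libraries in each of the 8 groups. Nlrp3 took 58.6% of the sum in neutrophils of day 1, and in CD9+ macrophages Gsdmd led on day 14 with 27.8%.

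Nlrp3 (chromosome 11, 59541568 to 59566956, plus strand) encodes the sensor that responds to potassium efflux, crystals and extracellular ATP, and its transcription is induced by NF-κB in the priming step. Neutrophils had 852 and 1574 CPM at day 1, then 359.8 and 314 CPM at day 14. The CX3CR1+ macrophages had 172 and 183 CPM on day 1 and 216 and 191 CPM on day 14, and F4/80- cells had 98.7 and 96.8, then 115 and 105. CD9+ macrophages had 129 and 249 CPM on day 1 and 70.3 and 57.6 CPM on day 14. All neutrophil libraries lay above all others of either day, and the CD9+ libraries of day 14 were the lowest of all 16. On day 1 the CD9+ and CX3CR1+ values overlapped, and group means ranged 19.0-fold, from 63.9 ± 8.96 CPM in CD9+ macrophages of day 14 to 1213 ± 510.3 CPM in neutrophils of day 1 (SD, n = 2).

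Mefv (chromosome 16, 3707218 to 3718097, minus strand) encodes pyrin, which senses the inactivation of RhoA by bacterial toxins. Neutrophils had 254 and 429 CPM at day 1, then 37.1 and 32.3 CPM at day 14, so they went from the highest of the 4 populations to the lowest. CX3CR1+ macrophages had 165 and 162 CPM, then 92.7 and 88.1, and CD9+ macrophages had 112 and 107 CPM, then 58.4 and 53.5. F4/80- cells of day 1 had 57.0 and 64.0 CPM, which overlapped with 55.8 and 57.0 CPM at day 14. Means ran from 34.7 ± 3.38 to 342 ± 124 CPM, a range of 9.85-fold.

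Nlrc4 (chromosome 17, 74425438 to 74459142, minus strand) encodes the platform that NAIP proteins activate when they bind flagellin or parts of bacterial secretion systems. Neutrophils had the least of it, with 6.52 and 5.53 CPM on day 1 and 3.37 and 1.34 CPM on day 14, the last being 28 and 13 counts. CD9+ macrophages had 30.3 and 37.7 CPM on day 1 and 13.7 and 12.3 CPM on day 14, whereas CX3CR1+ macrophages had 34.2 and 31.4, then 29.9 and 30.4. F4/80- cells had 24.1 CPM in both libraries of day 1 and 18.8 and 21.6 CPM on day 14. Neutrophils were thus below every other library on each day, and CD9+ macrophages dropped from level with CX3CR1+ cells on day 1 to below F4/80- cells on day 14. The day 14 difference between CD9+ macrophages and F4/80- cells was not called.

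Nlrp1b (chromosome 11, 71153102 to 71230733, minus strand) encodes a sensor of which anthrax lethal factor can cleave some forms. Its highest values were in the F4/80+ gates. CX3CR1+ macrophages had 34.4 and 33.3 CPM on day 1 and 29.0 and 29.9 CPM on day 14, and CD9+ macrophages had 24.4 and 26.3, then 11.7 and 10.4. Neutrophils had 9.0 and 9.48 CPM, then 6.02 and 7.31, and F4/80- cells had 6.00 and 4.99, then 1.96 and 4.16. The order of CX3CR1+ over CD9+ macrophages, then neutrophils, then F4/80- cells held on both days with no overlap between neighbours. Nlrp1b has a close copy, Nlrp1a, and reads shared between them cannot be assigned with certainty from this table.

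Aim2 (chromosome 1, 173350879 to 173466040, plus strand) encodes a sensor of double-stranded DNA in the cytosol. In neutrophils it stood at 45.7 and 81.7 CPM on day 1 and at 17.1 and 18.0 CPM on day 14, again passing from the highest population to the lowest. Scaled by library size only, neutrophils of day 1 had 34.2 and 62.3 CPM. These values overlapped with the 48.6 and 41.6 CPM of CX3CR1+ macrophages scaled in the same way. CX3CR1+ macrophages had 42.3 and 37.9 CPM on day 1 and 56.6 and 51.5 CPM on day 14. CD9+ macrophages had 33.9 and 25.8, then 31.8 and 23.5, and F4/80- cells had 23.5 and 25.7, then 22.6 and 22.3. The days overlapped in CD9+ macrophages, and on day 14 the CX3CR1+ libraries lay above all others.

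Pycard (chromosome 7, 127989708 to 127993867, minus strand), the gene of the adaptor ASC, had its highest mean in CX3CR1+ macrophages, with 78.8 and 67.0 CPM on day 1 and 53.9 and 51.6 CPM on day 14. CD9+ macrophages had 45.3 and 75.7 CPM on day 1 and 31.7 and 37.6 CPM on day 14. F4/80- cells had 37.9 and 31.8, then 42.0 and 39.7, and neutrophils had 35.2 and 22.2, then 19.0 and 21.6. CD9+ and CX3CR1+ values overlapped on day 1 and so did those of neutrophils and F4/80- cells. In the Gencode M21 annotation 485 exon bases of Pycard are shared with the antisense gene Gm45205, which had 825 counts over all libraries against 9934 for Pycard, and the strand setting of the authors' counting is not given in the sources used here.

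Casp1 (chromosome 9, 5298517 to 5307265, plus strand) was highest in CX3CR1+ macrophages, at 42.8 and 41.3 CPM on day 1 and 37.6 and 38.1 CPM on day 14. CD9+ macrophages had 25.0 and 22.8, then 16.3 and 22.4, F4/80- cells 21.1 and 17.5, then 14.6 and 17.3, and neutrophils 23.7 and 18.6, then 31.1 and 27.7. Neutrophils overlapped with CD9+ and with F4/80- cells on day 1 and lay between the 2 macrophage populations on day 14. Casp4 lies just downstream on the same strand (chromosome 9, 5308828 to 5336783) and had another pattern. Neutrophils had 65.1 and 81.1 CPM on day 1 and 32.6 and 34.6 CPM on day 14, while the other 3 populations stayed between 16.5 and 32.5 CPM on both days.

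Gsdmd (chromosome 15, 75862327 to 75867408, plus strand) had the smallest range of the 9 members, with group means from 52.1 ± 0.436 CPM in F4/80- cells of day 14 to 118 ± 1.46 CPM in neutrophils of day 14, or 2.27-fold. Neutrophils had 112 and 98.2 CPM, then 119 and 117. CD9+ macrophages had 70.8 and 102 CPM, then 64.6 and 67.7, CX3CR1+ macrophages had 75.3 and 73.2, then 70.1 and 72.2, and F4/80- cells had 56.5 and 57.6, then 51.8 and 52.4. F4/80- cells were below all other libraries of the same day. On day 1 CD9+ macrophages overlapped with neutrophils and with CX3CR1+ macrophages. The higher CD9+ value came from replicate 2, which also had the higher Nlrp3, Pycard, Nlrc4 and Nlrp1b. Aim2, Mefv, Casp1 and Casp4 were lower in that replicate. The neutrophil markers of these 2 pools summed to 18542 CPM in replicate 1 and 5694 CPM in replicate 2. Their part in the members' spread was not tested.

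**Figure D2:**
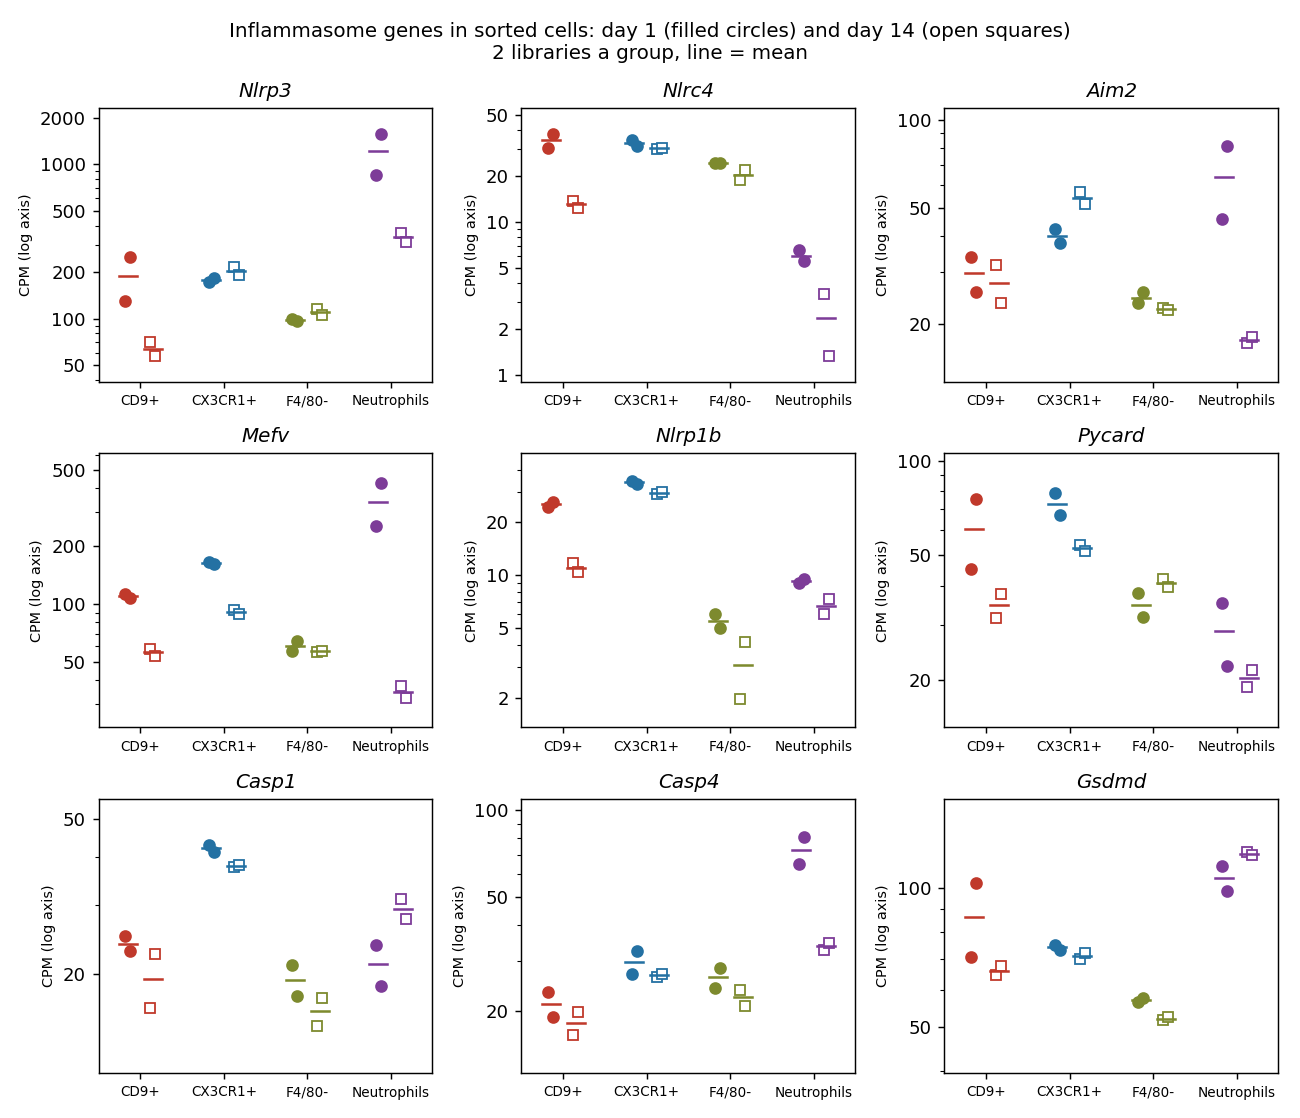
CPM on log axes for each of the 9 genes in the 4 sorted populations, with filled circles for day 1, open squares for day 14 and a line at the mean of the 2 libraries. Neutrophils of day 1 were at 852 and 1574 CPM for Nlrp3, Nlrc4 was lowest in neutrophils on both days, and the values of Gsdmd spanned the narrowest range.

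To ask how the transcripts changed as healing went on, day 14 was compared with day 1 within each population. In neutrophils 5 of the 9 members fell, which were Mefv, Aim2, Nlrp3, Nlrc4 and Casp4, while 10.9% of all tested genes were called lower. No member was called higher, against 3.15% of all genes, and at an unadjusted p under 0.05 there was 1 higher, with 0 called higher by DESeq2. Mefv fell 9.85-fold, by 3.30 on the log2 scale (standard error 0.20, edgeR adjusted p = 2.8e-08). Aim2 fell 3.62-fold (standard error 0.24 on the log2 scale, adjusted p = 4.6e-05) and Nlrp3 3.60-fold (0.27, adjusted p = 1.4e-04). Nlrc4 fell 2.61-fold (adjusted p = 0.0036), and Casp4 2.17-fold (adjusted p = 2.5e-04). Casp1 (log2 fold change 0.47, adjusted p = 0.080) and Gsdmd (0.17, adjusted p = 0.42) were not called, and neither were Nlrp1b (-0.47) and Pycard (-0.50). The median of the 9 was -1.12 against -0.02 over all tested genes.

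The calls of Casp4 and Nlrc4 were each lost without 1 library. Without replicate 2 of day 1 Casp4 stood at -0.96, just short of the fold threshold. Without replicate 2 of day 14 Nlrc4 stood at -0.84, against -2.17 without replicate 1. Nlrc4 was also not called with the compared groups alone (edgeR adjusted p = 0.072). The summed neutrophil markers of these groups were 88964 and 53812 CPM, then 109781 and 116056 CPM, while the 7 macrophage markers summed to 584 and 589.7 CPM, then 182 and 186 CPM. The part of these shifts in the falls was not tested.

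In CD9+ macrophages 3 members fell from day 1 to day 14, against 3.48% of all genes called lower. Nlrp3 fell 2.95-fold (log2 fold change -1.56, standard error 0.28, adjusted p = 0.0015), Nlrc4 fell 2.61-fold (-1.38, 0.24, adjusted p = 0.0012) and Nlrp1b fell 2.29-fold (-1.19, 0.25, adjusted p = 0.0044). Mefv (-0.97, adjusted p = 0.0026) and Pycard (-0.80, adjusted p = 0.030) passed the adjusted p but not the fold threshold. Casp1, Casp4, Aim2 and Gsdmd lay between -0.38 and -0.11 with adjusted p of at least 0.090. None was called higher (background 4.75%), with 0 at an unadjusted p under 0.05 and 0 by DESeq2. Without replicate 2 of day 1, the pool with the most Nlrp3, the fall of Nlrp3 came to -1.01 on the log2 scale and was still called. Nlrp1b was not called with libraries of these 2 groups alone (adjusted p = 0.064), in the test against a fold change of 1.5 (adjusted p = 0.063) or with scaling by library size only (-0.99). The rise of the eosinophil markers given above ran beside these falls, and its part was not tested.

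CX3CR1+ macrophages and F4/80- cells had no called change. In CX3CR1+ macrophages Mefv was at -0.86 (adjusted p = 0.0058), short of the fold threshold, and the other 8 members lay between -0.47 and 0.43 with adjusted p of at least 0.21. Background calls there were 2.39% of genes higher and 3.47% lower, the members' count at an unadjusted p under 0.05 was 0 higher and 1 lower, and DESeq2 called 0. In F4/80- cells the background was 1.01% higher and 2.24% lower. The members' count there at an unadjusted p under 0.05 was 0 higher and 1 lower, namely Nlrp1b at -0.85 (adjusted p = 0.085), and DESeq2 called 0. The other 8 lay between -0.27 (Casp1) and 0.23 (Pycard). Nlrp1b in F4/80- cells was called (-1.47, adjusted p = 0.020) once replicate 2 of day 14, the one with 4.16 CPM, was left out.

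**Figure D3:**
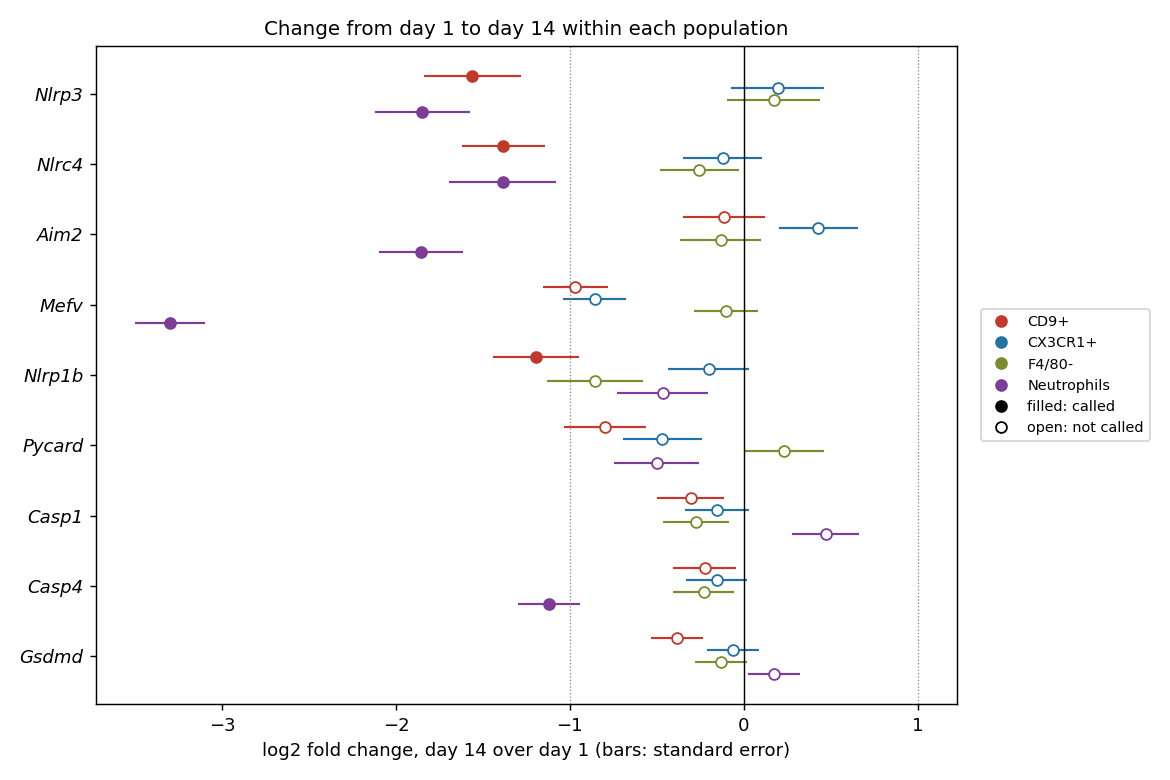
Log2 fold change from day 1 to day 14 for each gene in each population, with bars for the standard error, filled points for called changes and dotted lines at -1 and 1. Mefv in neutrophils lay farthest from 0 at -3.30, all filled points were to the left of -1, and no CX3CR1+ or F4/80- point was filled.

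Whether the populations differed in their change over time was tested as an interaction. Group means of Nlrp3 went from 178 to 203 CPM in CX3CR1+ macrophages and from 97.7 to 110 CPM in F4/80- cells, with neither change called. The change of Nlrp3 was lower in CD9+ than in CX3CR1+ macrophages, by -1.76 on the log2 scale (standard error 0.38, edgeR adjusted p = 0.021). It was the only called member, against 2.28% of genes called in either direction. Its change was also lower in CD9+ macrophages than in F4/80- cells (-1.73, standard error 0.38, adjusted p = 0.031), where the background was 1.69%. Both of these calls were near the threshold, as 6 of 8 fits without a library of the first comparison and 7 of 8 of the second did not reach it, with adjusted p from 0.052 to 0.12 in those fits. Fitted on the compared groups alone, they also missed it (adjusted p = 0.055 and 0.075), as they did in the test against a fold change of 1.5 (adjusted p = 0.094 and 0.14). Nlrc4 in CD9+ against CX3CR1+ macrophages (-1.26, adjusted p = 0.052) just missed and was called by DESeq2 and with the compared groups alone (adjusted p = 0.046). No member was called between CX3CR1+ macrophages and F4/80- cells (background 1.01%), with 2 at an unadjusted p under 0.05 and 0 by DESeq2.

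Neutrophils stood apart from all 3 populations in Mefv and Aim2. The change of Mefv was lower in neutrophils by 2.33 against CD9+ macrophages (adjusted p = 6.9e-05), by 2.44 against CX3CR1+ macrophages (adjusted p = 2.4e-05) and by 3.20 against F4/80- cells (adjusted p = 2.7e-06). That of Aim2 was lower by 1.74, 2.29 and 1.73 in the same order (adjusted p = 0.0040, 3.3e-04 and 0.0035). The change of Nlrp3 was lower in neutrophils than in CX3CR1+ macrophages (-2.04, adjusted p = 0.0023) and F4/80- cells (-2.02, adjusted p = 0.0028). Against CD9+ macrophages its difference was only -0.29 ± 0.38 (standard error, adjusted p = 0.69). Nlrc4 was called against CX3CR1+ macrophages alone (-1.26, adjusted p = 0.044), and stood at -2.05 without replicate 1 and at -0.72 (adjusted p = 0.25) without replicate 2 of the day 14 neutrophils. Called members numbered 2 of 9 against CD9+ macrophages, 4 of 9 against CX3CR1+ macrophages and 3 of 9 against F4/80- cells, beside backgrounds of 8.03%, 9.09% and 7.73%. These 3 tests share the neutrophil libraries.

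Neutrophils were next compared with both kinds of macrophages on the same day. On day 1, 7 members differed from CD9+ macrophages, 4 higher and 3 lower, where 21.7% of all genes were called higher and 27.9% lower. Nlrp3 was 6.43-fold higher (log2 2.69, standard error 0.28, adjusted p = 8.2e-07), Casp4 3.44-fold (adjusted p = 5.6e-07), Mefv 3.12-fold (adjusted p = 1.6e-06) and Aim2 2.12-fold higher (adjusted p = 7.1e-04). Nlrc4 was 5.61-fold lower (log2 -2.49, standard error 0.25, adjusted p = 5.5e-07), Nlrp1b 2.74-fold (adjusted p = 9.9e-05) and Pycard 2.10-fold lower (adjusted p = 9.3e-04). Casp1 (-0.18) and Gsdmd (0.28) were not called, and their values overlapped. Against CX3CR1+ macrophages of day 1 there were 3 higher and 3 lower, beside 24.1% and 26.9% of all genes. Nlrp3 was 6.83-fold, Casp4 2.46-fold and Mefv 2.09-fold higher, and Nlrc4 was 5.43-fold, Nlrp1b 3.66-fold and Pycard 2.54-fold lower. Casp1 at -0.99 (adjusted p = 2.5e-04) fell just short of the fold threshold, as did Aim2 (0.67) and Gsdmd (0.50) by more. With the 3 other filters and with upper quartile factors Casp1 was called lower (-1.26 to -1.07).

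The scaling bore on the neutrophil comparisons. When libraries were scaled by their size only, the all-gene median moved by -0.33 to -0.61 on the log2 scale in the 6 comparisons of neutrophils with another population, and with upper quartile factors by -0.21 to -0.31. By library size Aim2 against CD9+ macrophages stood at 0.75, Mefv against CX3CR1+ macrophages at 0.49 and Casp4 against CX3CR1+ macrophages at 0.73, none of them called, and the split against CX3CR1+ macrophages on day 1 was 1 higher and 4 lower. No called member changed direction under any scaling. Aim2 against CD9+ macrophages (0.62) and Mefv against CX3CR1+ macrophages (0.64) also lost the call without replicate 2 of the day 1 neutrophils, as did Pycard against CD9+ macrophages (-0.77). Pycard also lost it without replicate 2 of the CD9+ pools (-0.65), as did Aim2 (0.91), and Mefv without replicate 2 of the CX3CR1+ pools (0.98).

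On day 14, against CD9+ macrophages 1 member was higher and 1 lower, beside 19.9% and 29.6% of all genes. Nlrp3 was still 5.27-fold higher (log2 2.40, standard error 0.28, adjusted p = 2.6e-06) and Nlrc4 5.62-fold lower (adjusted p = 2.8e-06). The other 7 members all had adjusted p under 0.05 with log2 fold changes between -0.77 and 0.89, with Casp1 (0.60), Casp4 and Gsdmd on the higher side. Without replicate 1 of the day 14 neutrophils, which leaves the library with 13 counts, Nlrc4 came to -3.27 on the log2 scale. By library size the split was 1 higher and 5 lower, with Aim2, Mefv, Nlrp1b and Pycard called lower as well. Against CX3CR1+ macrophages 5 members were lower and 0 higher (backgrounds 27.1% and 20.9%), with 2 higher at an unadjusted p under 0.05 and 0 higher by DESeq2. Nlrc4 was 13.0-fold lower (log2 -3.70, standard error 0.29, adjusted p = 2.8e-08), Nlrp1b 4.40-fold, Aim2 3.08-fold, Mefv 2.61-fold and Pycard 2.59-fold lower. The value of Nlrc4 was -4.49 without replicate 1 of the day 14 neutrophils. Nlrp3 (0.73, adjusted p = 0.025) and Gsdmd (0.74, adjusted p = 4.9e-04) stood above CX3CR1+ macrophages without reaching the fold threshold, and Casp1 (-0.36) and Casp4 (0.33) did not pass the adjusted p. Thus Mefv was higher in neutrophils than in CX3CR1+ macrophages on day 1 and lower on day 14. Its day 1 value missed the fold threshold with the 3 other filters (0.88 to 0.99) and with upper quartile factors (0.79).

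**Figure D4:**
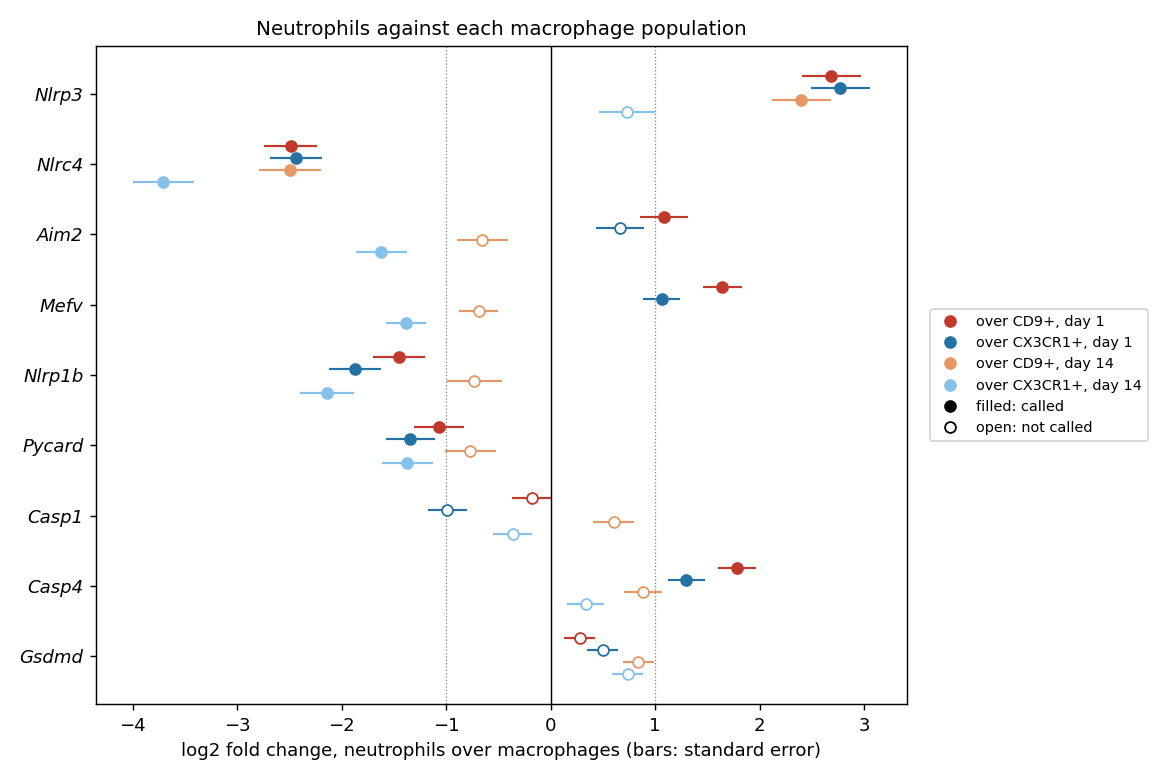
Log2 fold change of neutrophils over CD9+ or CX3CR1+ macrophages on each day, with bars for the standard error, filled points for called differences and dotted lines at -1 and 1. Nlrc4 lay between -3.70 and -2.44 in all 4 comparisons, and Aim2 and Mefv were right of 0 on day 1 and left of it on day 14.

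Between the macrophage populations 3 members were called on day 14 and none on day 1. Of these 3, only Nlrp3 was called in the interaction test given above. On day 1 none of 9 was called, beside 6.36% of genes higher in CD9+ macrophages and 1.88% lower, and DESeq2 called 0. At an unadjusted p under 0.05 there were 0 higher and 3 lower, and Casp1 (-0.81, adjusted p = 0.0081) and Mefv (-0.58, adjusted p = 0.041) passed the adjusted p alone. Casp1 was called (-1.05) with scaling by library size, which moved the median of all genes by -0.24. On day 14 Nlrp3 was 3.18-fold lower in CD9+ than in CX3CR1+ macrophages (log2 -1.67, standard error 0.28, adjusted p = 3.3e-04). Nlrp1b was 2.66-fold lower (-1.41, 0.25, adjusted p = 5.1e-04) and Nlrc4 2.32-fold lower (-1.21, 0.24, adjusted p = 0.0013). These 3 of 9 compare with 4.55% of all genes lower. None was higher (background 9.65%), with 0 at an unadjusted p under 0.05 and 0 by DESeq2. Aim2 and Casp1 both stood at -0.97 (adjusted p = 0.0061 and 0.0014), and without a filter on low counts both crossed the fold threshold. Mefv (-0.69, adjusted p = 0.011) and Casp4 (-0.55, adjusted p = 0.036) passed the adjusted p alone, while Pycard (-0.61, adjusted p = 0.072) did not. Gsdmd at -0.10 (adjusted p = 0.67) was closest to even. The summed eosinophil and neutrophil markers that set the CD9+ libraries of day 14 apart are given above, against 47.8 and 85.5 CPM of eosinophil markers in CX3CR1+ macrophages of that day, and their part in these differences was not tested.

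**Figure D5:**
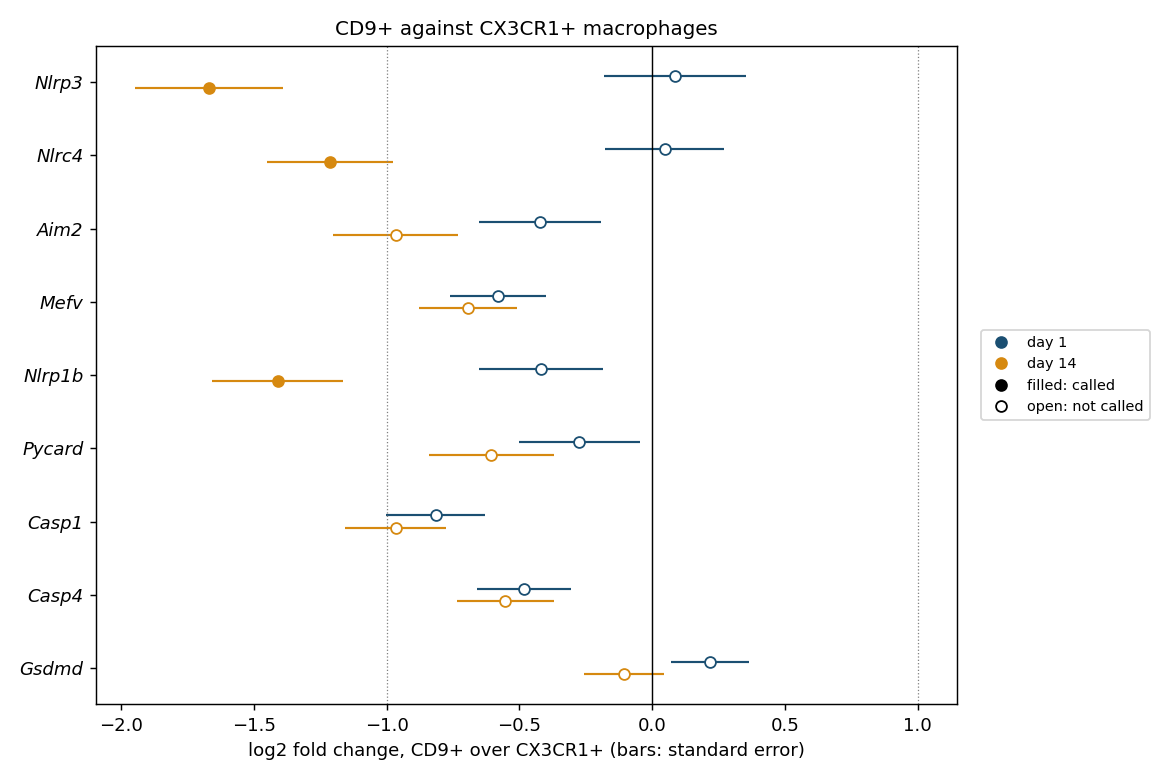
Log2 fold change of CD9+ over CX3CR1+ macrophages on day 1 and day 14, with bars for the standard error, filled points for called differences and dotted lines at -1 and 1. No point of day 1 was filled, and on day 14 Nlrp3, Nlrp1b and Nlrc4 lay at -1.67, -1.41 and -1.21.

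F4/80- cells served as the remaining myeloid population. Their neutrophil, basophil and mast cell markers are given above, and the part of these in the comparisons below was not tested. Nlrp1b was the 1 member called in CD9+ macrophages over F4/80- cells on each day, 4.60-fold higher on day 1 (adjusted p = 1.4e-05) and 3.64-fold higher on day 14 (adjusted p = 2.7e-04). Of all genes 9.23% were called higher and 6.16% lower on the first day, against 6.59% and 1.11% later. None was called lower, with 0 lower on day 1 and 2 lower on day 14 at an unadjusted p under 0.05 and 0 by DESeq2. On day 1 Nlrp3 (0.95), Mefv (0.85), Pycard (0.79) and Gsdmd (0.60) passed the adjusted p but not the fold threshold, and Nlrc4 (0.49), Casp1 (0.31), Aim2 (0.28) and Casp4 (-0.30) passed neither. On day 14 the 8 members other than Nlrp1b lay between -0.78 (Nlrp3) and 0.34 (Gsdmd) with adjusted p of at least 0.077. Without replicate 1 of the CD9+ pools, Nlrp3 (1.34) and Pycard (1.12) were also called on day 1. CX3CR1+ macrophages had 4 members higher than F4/80- cells on day 1, namely Nlrp1b (6.16-fold, adjusted p = 1.0e-06), Mefv (2.70-fold, adjusted p = 1.7e-05), Casp1 (2.18-fold, adjusted p = 2.0e-04) and Pycard (2.09-fold, adjusted p = 0.0019). On day 14 they had 3, namely Nlrp1b (9.68-fold, adjusted p = 2.6e-07), Aim2 (2.41-fold, adjusted p = 5.3e-04) and Casp1 (2.37-fold, adjusted p = 1.0e-04). The background was 10.2% higher with 10.9% lower on the first day and 11.1% with 10.4% later, while no member was lower on either day, also not at an unadjusted p under 0.05 (0 of 9) or by DESeq2 (0 of 9). The members not called lay between 0.18 (Casp4) and 0.86 (Nlrp3) on day 1 and between 0.25 (Casp4) and 0.88 (Nlrp3) on day 14. Without replicate 2 of the day 14 F4/80- pools, Nlrp1b stood at 3.89 on the log2 scale in CX3CR1+ and at 2.47 in CD9+ macrophages, against 3.27 and 1.86 with all libraries. Pycard lost its day 1 call without replicate 1 of the CX3CR1+ pools (0.94) or replicate 2 of the F4/80- pools (0.95).

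Neutrophils over F4/80- cells had 4 members higher and 1 lower on day 1 (22.6% and 26.4% of all genes), with Nlrp3 12.4-fold, Mefv 5.65-fold, Casp4 2.79-fold and Aim2 2.59-fold higher and Nlrc4 3.98-fold lower. By library size the split was 2 higher and 1 lower, and Aim2 (0.90) lost its call without replicate 2 of the neutrophils. On day 14, 3 were higher, namely Nlrp3 (3.06-fold), Gsdmd (2.27-fold) and Nlrp1b (2.20-fold), and Nlrc4 (8.73-fold) and Pycard (2.01-fold) were lower, beside 21.3% and 27.4% of all genes. By library size 1 was higher and 3 were lower, and by upper quartile factors 1 and 2. Nlrp1b, with 27 and 51 counts in the F4/80- libraries, was not called without replicate 1 of these (0.65) or without replicate 2 of the neutrophils (0.99), and Pycard not without replicate 1 of the neutrophils (-0.92), where Nlrc4 came to -3.91. Members not called lay between -0.28 (Pycard) and 0.88 (Gsdmd) on day 1 and between -0.70 (Mefv) and 0.88 (Casp1) on day 14.

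The partners, substrates and restraints of the inflammasome were covered by 6 lists with 58 tested genes. In neutrophils 17 of the 58 fell from day 1 to day 14 and 0 rose (5 rose at an unadjusted p under 0.05, and 1 by DESeq2), with a median log2 fold change of -0.53, beside 10.9% of all genes lower and 3.15% higher. Of the substrates and pore effectors 5 of 7 fell, with a median of -1.68. Il1a, the gene of the alarmin IL-1α, went from 372 ± 239.9 to 1.86 ± 0.421 CPM (SD, n = 2), and Il1b, whose precursor caspase-1 cleaves, went from 5265 ± 1275 to 1638 ± 21.5 CPM. Ninj1, which ruptures the membrane after pore formation, fell 4.76-fold (edgeR adjusted p = 4.1e-07), and Il18 fell 4.75-fold (adjusted p = 0.011). Among partners, P2rx7, the ATP receptor that triggers NLRP3, fell 7.69-fold (adjusted p = 6.7e-06), along with Irf8, Tlr4 and Gbp2. Both P2rx7 and Il18 were low in neutrophils. P2rx7 went from 5.18 ± 0.626 to 0.679 ± 0.232 CPM and Il18 from 6.52 ± 0.0944 to 1.39 ± 1.10 CPM. In the day 14 neutrophil libraries 3 counts equal 0.361 and 0.309 CPM. Of the restraint list Tnfaip3, the gene of the NF-κB inhibitor A20, fell 8.99-fold (adjusted p = 9.6e-07) and Il1rn, the gene of the IL-1 receptor antagonist, fell 6.51-fold (adjusted p = 1.2e-06).

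In CD9+ macrophages 2 of the 58 rose and 6 fell over time (median -0.31), beside 4.75% of all genes higher and 3.48% lower, so the count that rose was near the background. Il1a fell 19.8-fold, from 66.6 ± 1.62 to 3.36 ± 0.409 CPM, and Il1b fell 5.78-fold, from 438 ± 97.5 to 75.8 ± 3.91 CPM. Il1rn fell 3.08-fold, as did Casp6, and Ripk3, a kinase of necroptosis, fell 2.66-fold. Elane, the gene of neutrophil elastase and itself a neutrophil granule gene, rose 2.23-fold (adjusted p = 0.049). In CX3CR1+ macrophages 3 of 58 fell and 0 rose (11 rose at an unadjusted p under 0.05, and 0 by DESeq2), and these were Il1a (8.33-fold), Il1rn (4.02-fold) and Il1b (2.45-fold), beside 2.39% of all genes higher and 3.47% lower. In F4/80- cells, with 1.01% of all genes higher and 2.24% lower, 1 rose, Tnfaip3 (2.48-fold), and 4 fell, namely Il1a, Il1rn, Il1b and Nod2. The IL-1 genes therefore fell in all 4 populations, while sensors of the member set were called in CD9+ macrophages and neutrophils. All-gene medians in these 4 comparisons lay between -0.02 and 0.03.

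CD9+ macrophages differed from CX3CR1+ macrophages on day 14 in 21 of the 58 genes, 7 higher and 14 lower, with a median of -0.30 against 0.01 over all genes, of which 9.65% were higher and 4.55% lower. The count on the higher side was near that background. Among the other sensors 6 of 11 were lower and 2 higher, with a median of -1.10. The DNA sensor genes Ifi203 (4.0-fold, adjusted p = 2.8e-06) and Ifi204 (3.74-fold, adjusted p = 3.9e-05) were lower, while Nlrp12, a regulator of NF-κB signalling, was 17.8-fold higher (adjusted p = 1.6e-06), at 12.1 ± 0.926 against 0.671 ± 0.161 CPM. The partners Gbp5, Naip6, P2rx7 and Irf8 were 2.09- to 2.69-fold lower. Higher in CD9+ macrophages were Elane (9.31-fold), Ctsg (2.41-fold) and Serpinb1a (7.0-fold), which encode granule proteases and an inhibitor of them, and Il1rn (3.09-fold). Nlrp12, Elane, Ctsg and Serpinb1a were also higher in F4/80- cells than in CX3CR1+ macrophages on both days. Il1b was 2.42-fold lower in CD9+ macrophages on day 14 (adjusted p = 8.5e-05), at 75.8 ± 3.91 against 184 ± 12.0 CPM, although on day 1 its values were 438 ± 97.5 and 449 ± 43.4 CPM.

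On day 14 neutrophils had less Irf8 than CX3CR1+ macrophages (3.70 ± 1.75 against 293 ± 8.33 CPM) and less P2rx7 (0.679 ± 0.232 against 63.1 ± 11.8 CPM). They had more Nlrp12 (137 ± 2.65 against 0.671 ± 0.161 CPM), more Gsdme, the gene of another gasdermin (225 ± 2.41 against 8.58 ± 0.0624 CPM), and more Il1b (1638 ± 21.5 against 184 ± 12.0 CPM). Of the 58 genes 11 were called higher and 22 lower in this comparison, beside 20.9% and 27.1% of all genes, so the count on the higher side was near the background. Of the NAIP genes, whose products feed NLRC4, Naip2 stood at 139 ± 6.92 CPM in neutrophils and 164 ± 16.8 CPM in CX3CR1+ macrophages of day 14, and Naip5 at 45.4 ± 8.22 and 83.2 ± 0.848 CPM. Neither was called there, whereas Naip6 was 2.82-fold lower in neutrophils (adjusted p = 2.7e-07).

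Across the 16 libraries the members did not move as a block. As a description, the highest Pearson correlations of log2 CPM among the 36 pairs were 0.90 for Casp4 with Nlrp3, 0.85 for Aim2 with Mefv and 0.85 for Nlrc4 with Pycard, and the lowest was -0.65 for Gsdmd with Nlrc4. The neighbours Casp1 and Casp4 had 0.10. These points share their groups, so a correlation here mostly restates differences between populations. The genes most like each member, by the same measure over the 16 libraries, were Tiparp (0.97), Traf6 (0.96) and Kdm2a (0.95) for Nlrp3, Icam1 (0.95), Higd1a (0.93) and Cdkn1a (0.93) for Mefv, and Jmy, Klf10 and Map3k8 (each 0.93) for Aim2. For Nlrc4 they were Nufip1 (0.98), F13a1 and Urb1 (both 0.97), and for Nlrp1b Zc3h12d (0.97), Gngt2 (0.96) and Abi3 (0.95). Pycard was closest to Ppib (0.95), Erp29 (0.94) and Nxpe5 (0.93), Casp1 to Pip4k2a (0.94), Aup1 (0.93) and Smpdl3a (0.92), Casp4 to Stambpl1, Dhx8 and Resf1 (0.94 to 0.95), and Gsdmd to Myo18a (0.98), Arap1 (0.97) and Dctn2 (0.96). With Spearman's measure all 3 genes were shared for Aim2, 2 for Mefv and Nlrp1b, 1 for Gsdmd and 0 for the other 5 members.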

How the data were processed

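Libraries were made with a SMART-Seq Stranded kit and sequenced from both ends. Per the methods, the authors used Cutadapt for trimming, STAR for alignment to mm10 and Gencode M23 exons for counting, and the deposited values are raw counts per gene. The submitters' processing notes also list edgeR. Groups came from the sample labels. A gene was kept if its mean CPM reached 3 in any of the 8 groups. TMM factors were computed on these 11998 genes, and 1 model of group means was fitted by glmQLFit and tested by glmQLFTest (edgeR 4.0.16 under R 4.3.3), with Benjamini-Hochberg adjustment over all of them. Log2 CPM used a prior count of 2. Exon lengths came from Gencode M21, which also uses mm10. The steps were tested on simulated counts. In each comparison of groups every called member is named and the others are given by value or range, while of the differences in time change mainly the called ones are given. Of each pathway list, up to 4 called genes a comparison with the largest change and no overlap between groups could be named, and other list genes given with CPM values were chosen after these were seen. Members, lists and tests were chosen with earlier results of these data known. Alternatives were DESeq2 1.42.0, 3 other filters, 3 other scalings, fits of the compared groups alone, the replicate block, no fold threshold, glmTreat, and leaving out each library, which assumes that the remaining library varies like the other groups. For 1 gene of the pathway lists no value is reported here, though list counts include it.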

Additional observations from a re-analysis of the deposited data

Results flagged for a closer look

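The change from day 1 to day 14 differed between populations for 4 members, by the interaction term of the edgeR fit. Each value below is the change in the population named earlier minus that in the later one, on the log2 scale. Nlrp3 differed between CD9+ and CX3CR1+ macrophages by -1.76 and between CD9+ macrophages and F4/80- cells by -1.73, and both values fell short of the threshold in most fits without a library. Between neutrophils and CX3CR1+ macrophages Nlrp3 differed by -2.04, and between neutrophils and F4/80- cells by -2.02. Mefv differed between neutrophils and CD9+ macrophages, CX3CR1+ macrophages and F4/80- cells by -2.33, -2.44 and -3.20. Aim2 differed between the same pairs by -1.74, -2.29 and -1.73. Nlrc4 differed between neutrophils and CX3CR1+ macrophages by -1.26, and this was called in 5 of 19 other fits. The group size of 2 did not allow a check for outlying libraries.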

How the results depend on the processing

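Counts of called members out of 9 are given for some of the comparisons in which they changed. No called member changed direction under any alternative. Without the fold threshold the counts were 5 for CD9+ and 1 for CX3CR1+ macrophages over time. Between these macrophages they were 2 on day 1 and 7 on day 14. They were 5 for CD9+ over F4/80- cells on day 1, and 6 for CX3CR1+ over F4/80- cells on each day. Neutrophils of day 1 gave 9 against CX3CR1+ macrophages and 7 against F4/80- cells. Neutrophils of day 14 gave 9 against CD9+ macrophages, 7 against CX3CR1+ macrophages and 8 against F4/80- cells. By library size only the counts were 1 between the macrophages on day 1, 3 for neutrophils over F4/80- cells on day 1 and 6 for neutrophils against CD9+ macrophages on day 14. Without a filter 5 differed between the macrophages on day 14. For neutrophils over F4/80- cells on day 14, upper quartile factors gave 3, and the filter in every group gave 2 of the 8 members tested. A test against a fold change of 1.5 gave 4 for neutrophils against CD9+ macrophages on day 14 and 0 for the difference in time change of CD9+ macrophages from CX3CR1+ macrophages or from F4/80- cells. DESeq2 gave 2 for each of those differences. With the compared groups alone the difference from F4/80- cells gave 0 and that of neutrophils from CD9+ macrophages gave 1. Leaving out single libraries gave 0 to 1 for F4/80- cells over time, 1 to 3 for CD9+ over F4/80- cells on day 1, and, for the difference in time change of CD9+ macrophages, 0 to 2 from CX3CR1+ macrophages and 0 to 3 from F4/80- cells. Libraries with the same number shared little (correlation of deviations 0.0132 to 0.144), and a paired fit with a replicate block within each day changed 1 count, the difference in time change of neutrophils from CX3CR1+ macrophages, to 3 from 4 (Nlrc4, adjusted p = 0.051). The causes were not tested. With 2 pools a group the spread between pools limited precision, and Nlrc4 had 28 and 13 counts in neutrophils of day 14.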
